A study of Homo sapiens with 12 samples.

Results

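The genes that encode the proteasome, its regulatory particles and activators and the factors that assemble it were followed in HepG2 cells, a human hepatocellular carcinoma line, under low or high glucose with or without valproic acid (VPA). The 47 genes were taken by symbol, as every PSMA, PSMB, PSMC, PSMD, PSME, PSMF and PSMG gene with a number, together with POMP, out of 16389 genes in the count table. All 47 passed the filter on low counts in every comparison, and PSMA8 and PSMB11, the germ cell and thymic subunits, were not analysed here. The 12 poly(A) RNA-seq libraries formed 4 groups of 3. LG cells were kept in normoglycaemic medium with 5.5 mM glucose and HG cells in hyperglycaemic medium with 20 mM glucose for 48 h. LGV and HGV cells had the same media for 48 h and then 1 mM VPA, an anticonvulsant that inhibits histone deacetylases, for a further 12 h. Whether the untreated cells were collected at 48 h or 12 h later is not stated in the sources used here. If at 48 h, VPA and the longer culture cannot be told apart. Nothing in the sources used here says whether the 3 replicates came from separate cultures, so the p-values measure only the spread between these libraries. The comparisons address how hyperglycaemia and VPA, alone and together, alter hepatic gene expression.

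The proteasome is the protease that degrades most ubiquitin-tagged proteins in the cytosol and nucleus. Its 20S core is a barrel of PSMA (alpha) rings, which gate the entrance, around PSMB (beta) rings, in which PSMB6, PSMB7 and PSMB5 carry the caspase-like, trypsin-like and chymotrypsin-like sites. Under interferon these catalytic subunits are replaced in newly built cores by PSMB9, PSMB10 and PSMB8, and the resulting immunoproteasome supplies peptides for MHC class I. The 19S particle unfolds substrates with its PSMC ATPases and binds and deubiquitinates them with its PSMD subunits, while PSME1 to PSME4 form alternative caps on the core.

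Total counts ran from 29798442 to 45572694 per library, and the 47 genes together took 0.456% to 0.520% of them. All 8 hepatocyte lineage markers examined were present, with ALB at 18946 to 29437 CPM, the counts scaled to a common library size. Of the markers of other cell types, CD14, CSF1R and VWF reached at most 4.73 CPM in any library, whereas LYZ was at 908 to 1545 CPM and PDGFRB at 18.5 to 57.9 CPM. The mean level of PDGFRB was 49.2, 23.7, 35.3 and 28.4 CPM in LG, HG, LGV and HGV; the part of other cell types in the results was not tested. PTPRC, CD3E, PECAM1, COL1A2 and LUM were not analysed here. HGV replicate 2 stood apart in these genes, since it had the highest level of its group in 36 of the 47, by a median of 0.16 on the log2 scale above the group mean.

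Per kilobase of transcript, and averaged over the 12 libraries, the 47 genes ranged from 0.608 CPM per kb for PSMC1 to 314 for PSMA7, with a median of 41.9. The most abundant after PSMA7 were PSMB5 (280.4), PSME1 (277) and PSME2 (243). The 7 constitutive PSMB genes had a median of 168 CPM per kb, with PSMB1, PSMB3 and PSMB4, structural subunits, at 229, 166 and 174 and PSMB2 lowest at 25.3. These values depend on the transcript length used, which was 4.43 kb for PSMB2 and 0.762 to 0.918 kb for the other 3. Before division by length PSMB2 was at 112 CPM, beside 127 for PSMB3 and 75.5 for PSMB6. Which transcript lengths the cells used was not tested. The immunoproteasome genes PSMB8, PSMB9 and PSMB10 were at 22.7, 6.51 and 2.03 CPM per kb. The 19S ATPase genes had a median of 41.9 and the non-ATPase genes of 60.1, and the assembly chaperones PSMD9 and PSMD5 were among the least abundant, at 2.86 and 6.63.

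**Figure D1:**
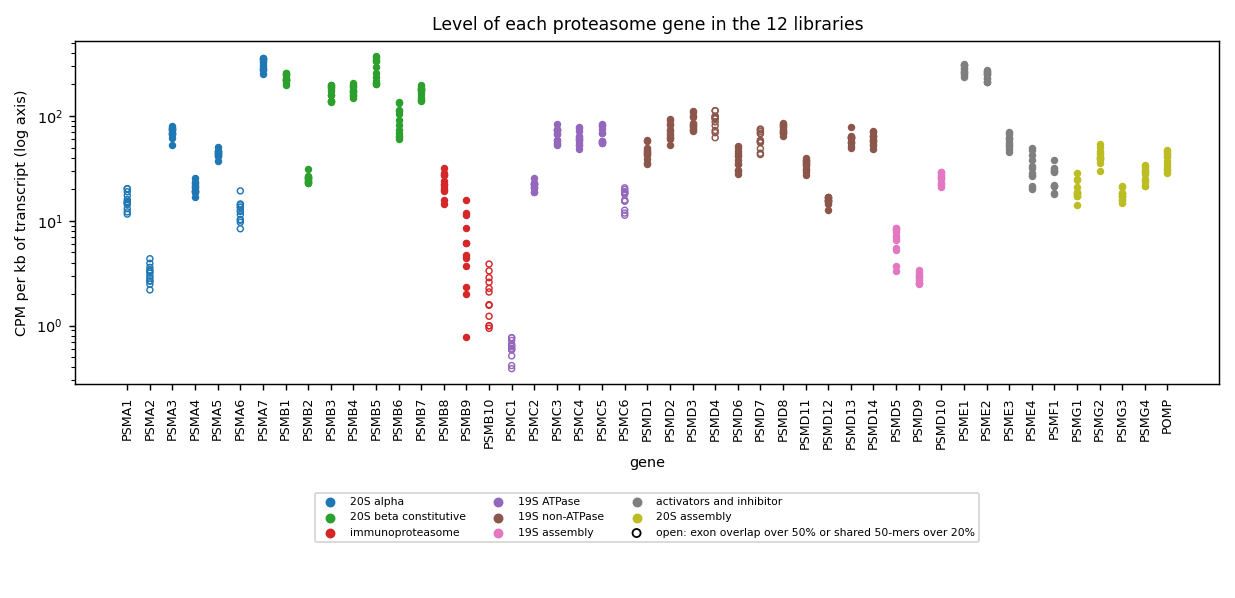
Level of each of the 47 proteasome genes in the 12 libraries, in TMM-scaled CPM per kilobase of transcript on a log axis, with 1 point per library and colours for the role of the subunit. Open symbols mark the 8 genes whose level is uncertain because over 50% of their exon bases overlap another gene or over 20% of their 50-base stretches occur elsewhere in the genome. PSMB9 spreads over more of the axis than any other member, and PSMC1 lies lowest.

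Some of these levels were uncertain because reads are shared. Exons of PSMA2, PSMA6, PSMA1 and PSMB10 overlapped another annotated gene on the same strand over 100%, 81.4%, 67.0% and 56.1% of their bases, and those of PSMC1 and PSMD7 overlapped a gene on the other strand over 83.2% and 51.6%. Whether counting used the strand is not stated, so reads of such pairs may have been split or dropped. The overlaps were read from a GENCODE annotation that differs from the Ensembl release used for counting. Counts of an overlapping gene were examined for PSMC1, PSMB10 and PSMD7 only. Whether PSMA1, PSMA2 and PSMA6 lost reads in the deposited counts was not tested. PSMC1, PSMC6, PSMA6 and PSMD4 also had 38.0%, 30.7%, 27.6% and 23.4% of their 50-base stretches, the length of a read, at another place in the genome, against 0% for 25 members. The low level of PSMC1, counted at 58 to 127 reads per library, and that of PSMB10, at 30 to 148 reads, are therefore levels of the reads that could be assigned. PSMB9 and PSMB8 had no such overlap and no shared stretches.

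The greatest fold changes with VPA among the 47 genes, in both media, were those of PSMB9 and PSMB10, catalytic subunits of the immunoproteasome. In HGV against HG, 11 of the 47 genes passed the test at an FDR of 0.05 or less (edgeR quasi-likelihood test, adjusted over all genes), against 46.1% of the 16188 genes tested. PSMB9, PSMD1 and PSMD13 were higher (25.8% of all genes were), and PSMB5, PSMB6, PSMB8, PSMB10, PSMC3, PSMC5, PSMD4 and PSMG4 were lower (20.2% of all genes). In LGV against LG, 13 of the 47 passed, against 41.6% of 15944 genes. PSMB9 alone was higher (21.7% of all genes), and PSMB5, PSMB6, PSMB10, PSMC3, PSMC4, PSMC5, PSMD4, PSMD7, PSMD5, PSME3, PSMG1 and PSMG4 were lower (19.9%). Fewer members than genes in general were thus called in either medium, and the median log2 fold change over the members was -0.10 in HGV against HG and -0.18 in LGV against LG, beside 0.02 and -0.01 over all genes tested. In RNA from a whole culture, a lower level in every cell and a loss of the transcript from some of the cells cannot be told apart. Without HGV replicate 2, 16 members (3 higher, 13 lower) passed in HGV against HG.

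The split between higher and lower members depended on how libraries were scaled. With library size alone, which moved the median of all genes to 0.15 in HGV against HG and 0.16 in LGV against LG, 4 members were higher and 4 lower in the former and 6 higher and 7 lower in the latter. No member that was called changed sign under any scaling, filter or left-out library.

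PSMB9, the interferon-inducible replacement for the caspase-like subunit PSMB6, had the greatest fold change of the 47 genes in all 4 comparisons between groups. In replicates 1 to 3, it was at 2.06, 0.798 and 2.40 CPM in LG, 3.80, 4.76 and 4.54 in HG, 8.70, 6.30 and 6.22 in LGV and 12.1, 16.1 and 11.7 in HGV. The 4 groups did not overlap, and their order from lowest to highest was LG, HG, LGV, HGV. The log2 fold change (± standard error) was 1.61 ± 0.17, FDR = 8.7e-06, in HGV against HG and 2.03 ± 0.32, FDR = 0.00014, in LGV against LG. Between glucose media it was 1.35 ± 0.30, FDR = 0.0032, in HG against LG and 0.89 ± 0.18, FDR = 0.00074, in HGV against LGV. The level stayed low throughout, from 32 to 679 reads per library, and LG replicate 2 was the lowest; without that library the log2 fold change was 1.01 in HG against LG and 1.66 in LGV against LG.

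PSMB9 shares its promoter region with TAP1, a subunit of the peptide transporter of the MHC class I pathway, which is read in the opposite direction. On GRCh37 the annotated starts lie at positions 32821969 (PSMB9) and 32821481 (TAP1) of chromosome 6, with 487 bases between them. The bases just upstream of each start are given with those of PSMB10, PSMB5 and PSMB6, the other catalytic genes that passed the test in both VPA comparisons, 5′ to 3′ on the strand of the gene and ending at the base before the annotated start; capitals mark matches to TGACNNNGC, the core of the antioxidant response element.
PSMB9, chr6:32821809-32821968, plus strand: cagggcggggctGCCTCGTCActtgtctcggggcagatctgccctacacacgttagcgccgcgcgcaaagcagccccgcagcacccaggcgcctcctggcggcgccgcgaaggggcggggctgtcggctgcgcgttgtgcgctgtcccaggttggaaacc
TAP1, chr6:32821482-32821601, minus strand: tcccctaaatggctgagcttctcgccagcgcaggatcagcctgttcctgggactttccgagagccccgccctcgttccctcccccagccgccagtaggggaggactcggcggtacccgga
PSMB10, chr16:67970754-67970873, minus strand: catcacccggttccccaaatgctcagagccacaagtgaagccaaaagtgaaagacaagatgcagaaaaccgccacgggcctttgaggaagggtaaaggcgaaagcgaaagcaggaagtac
PSMB5, chr14:23504110-23504229, minus strand: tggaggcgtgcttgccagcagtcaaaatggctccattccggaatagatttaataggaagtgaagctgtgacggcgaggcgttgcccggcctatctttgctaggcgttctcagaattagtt
PSMB6, chr17:4699339-4699458, plus strand: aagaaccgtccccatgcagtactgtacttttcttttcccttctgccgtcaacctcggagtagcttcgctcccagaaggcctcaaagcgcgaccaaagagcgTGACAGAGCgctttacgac
The PSMB9 match lies 148 to 140 bases before the start on the minus strand relative to the gene, and that of PSMB6 lies 19 to 11 bases before the start. TAP1 passed the test in 1 comparison, in the direction opposite to PSMB9. TAP1 was at 53.2, 52.9 and 45.0 CPM in LG, 47.4, 49.5 and 48.7 in HG, 55.7, 70.4 and 60.7 in LGV and 42.7, 50.8 and 35.9 in HGV. Its log2 fold change was -0.17 ± 0.13, FDR = 0.3, with VPA in HG, 0.32 ± 0.12, FDR = 0.054, with VPA in LG and -0.03 ± 0.13, FDR = 0.89, for glucose alone, and it fell in HGV against LGV (-0.55 ± 0.14, FDR = 0.0044), where PSMB9 rose.

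PSMB10, the replacement for the trypsin-like subunit PSMB7, moved opposite to PSMB9 under VPA. PSMB10 was at 3.25, 2.05 and 3.78 CPM in LG, 2.54, 2.21 and 2.80 in HG, 1.20, 1.53 and 1.55 in LGV and 0.920, 0.975 and 0.970 in HGV. All VPA libraries lay below all untreated ones, whereas LG and HG overlapped. It fell in HGV against HG (-1.39 ± 0.21, FDR = 0.00018) and in LGV against LG (-1.07 ± 0.28, FDR = 0.0061), and did not pass the test in HG against LG (-0.24 ± 0.25, FDR = 0.51) or HGV against LGV (-0.59 ± 0.28, FDR = 0.094). Its overlapping neighbour on the same strand, CTC-479C5.12, was counted at 29 to 97 reads, and the part of shared exons in the change of PSMB10 was not tested.

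PSMB8, the replacement for the chymotrypsin-like subunit PSMB5, fell with VPA in high glucose. PSMB8 was at 30.6, 23.2 and 27.0 CPM in LG, 30.7, 32.3 and 35.9 in HG, 24.5, 21.9 and 21.5 in LGV and 16.3, 25.2 and 17.6 in HGV. Every HG library was above every HGV library, while LG and LGV overlapped. The log2 fold change was -0.74 ± 0.16, FDR = 0.002, in HGV against HG, and -0.23 ± 0.14, FDR = 0.2, in LGV against LG; the difference between these responses did not pass the test (-0.49 ± 0.22, FDR = 0.39). The 3 immunoproteasome genes therefore did not move as a group: in HGV against HG 1 was higher and 2 were lower.

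**Figure D2:**
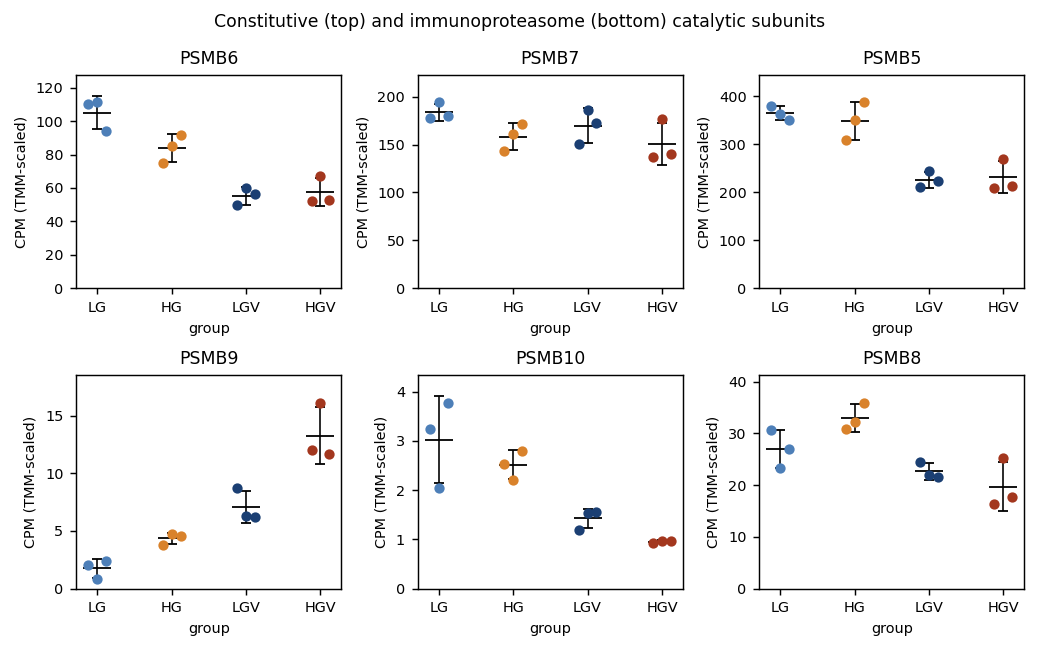
TMM-scaled CPM of the 3 constitutive catalytic subunits (top) and the immunoproteasome subunit that replaces each (bottom), with 1 point per library and black bars for the mean and SD of 3 libraries; each panel has its own vertical axis starting at 0. PSMB9 rises from LG to HGV without overlap between groups, PSMB10, PSMB5 and PSMB6 are lower in both VPA groups, and PSMB7 overlaps between treated and untreated libraries in each medium.

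Of the constitutive catalytic subunits, PSMB5 and PSMB6 fell with VPA and PSMB7 did not pass the test in any comparison. PSMB5 was at 380.2, 364 and 350.4 CPM in LG, 309, 351 and 387 in HG, 211, 244 and 224 in LGV and 209.8, 269 and 214 in HGV. PSMB6 was at 110.1, 111 and 93.9 CPM in LG, 74.9, 85.3 and 91.6 in HG, 49.7, 60.2 and 56.2 in LGV and 52.1, 67.3 and 53.0 in HGV. PSMB7 was at 178, 194 and 179.7 CPM in LG, 143, 161 and 171 in HG, 150.1, 186 and 173 in LGV and 137, 176 and 140.1 in HGV. For both PSMB5 and PSMB6 every VPA library was below every untreated library of the same medium, and PSMB7 overlapped between treated and untreated libraries in both media. PSMB5 changed by -0.60 ± 0.13, FDR = 0.002, in HGV against HG and -0.68 ± 0.12, FDR = 0.0003, in LGV against LG. PSMB6 changed by -0.55 ± 0.13, FDR = 0.0033, in HGV against HG and -0.91 ± 0.12, FDR = 3.1e-05, in LGV against LG. For PSMB7 the log2 fold changes were -0.07 ± 0.12 and -0.10 ± 0.12, and both turned slightly positive (0.051 and 0.052) when scaled by library size alone. Neither PSMB5 (-0.04 ± 0.12 in HG against LG, 0.01 ± 0.13 in HGV against LGV) nor PSMB6 (-0.30 ± 0.13 and 0.04 ± 0.13) passed the test between glucose media, and for PSMB5 the sign of these values depended on the scaling.

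A ratio of an immunoproteasome gene to the subunit it replaces, taken within a library, does not depend on scaling between libraries. PSMB9 made up 1.68 ± 0.899% (SD, n = 3) of the PSMB9 and PSMB6 reads in LG, 4.94 ± 0.299% in HG, 11.4 ± 2.99% in LGV and 18.7 ± 0.645% in HGV. Averaged over the other factor, the log2 ratio rose by 2.60 with VPA and by 1.32 with high glucose. Each had an exact permutation p of 0.005 (two-sided, labels permuted within the other factor, 400 arrangements), the smallest this design allows. The adjusted value of each was 0.010 over the 6 ratio tests. The steps were unequal: the mean log2 ratio was -6.04 in LG, -4.26 in HG, -2.98 in LGV and -2.12 in HGV. LG replicate 2 was lowest at -7.10, and the difference between the steps was not tested. PSMB10 made up 1.63 ± 0.528% of the PSMB10 and PSMB7 reads in LG, 1.57 ± 0.196% in HG, 0.832 ± 0.050% in LGV and 0.635 ± 0.075% in HGV. Averaged in the same way, the log2 ratio of PSMB10 to PSMB7 fell by 1.11 with VPA (exact permutation p = 0.005, adjusted 0.010). It differed by -0.20 between glucose media (exact permutation p = 0.28, adjusted 0.402). PSMB8 made up 6.86 ± 0.764% of the PSMB8 and PSMB5 reads in LG, 8.66 ± 0.352% in HG, 9.14 ± 1.13% in LGV and 7.79 ± 0.673% in HGV. Every LGV library was above every LG library, whereas HGV overlapped with HG and had the lower mean, and the difference between the media was not tested for this ratio. Averaged over the media, the log2 ratio differed by 0.14 with VPA (exact permutation p = 0.335, adjusted 0.402), and averaged over the treatments it differed by 0.06 with glucose (exact permutation p = 0.63, adjusted 0.63).

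The structural subunits of the core moved little. None of the 7 PSMA genes passed the test in either VPA comparison, their median log2 fold change being -0.10 in HGV against HG and -0.23 in LGV against LG, with PSMA6 lowest (-0.33 and -0.35). PSMA2, PSMA3, PSMA4, PSMA5, PSMA6 and PSMA7 did not pass in any comparison, and PSMA1 was lower in HGV against LGV alone (-0.43 ± 0.15, FDR = 0.032), a call that was lost without LGV replicate 1 or 2 or HGV replicate 1 or 3. None of the structural PSMB genes PSMB1, PSMB2, PSMB3 and PSMB4 passed the test in any comparison.

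In the 19S particle VPA lowered some of the ATPases, which thread substrates into the core, and the ubiquitin receptor PSMD4. PSMC5 fell from 94.4 ± 5.17 CPM (SD, n = 3) in HG to 76.1 ± 1.78 in HGV (-0.31 ± 0.10, FDR = 0.017) and from 109.9 ± 2.60 in LG to 75.1 ± 0.934 in LGV (-0.54 ± 0.11, FDR = 0.001). PSMC3 changed by -0.31 (FDR = 0.037) and -0.41 (FDR = 0.0094), and PSMD4 by -0.29 (FDR = 0.039) and -0.49 (FDR = 0.003), in HG and LG medium respectively. PSMC4 (-0.40 ± 0.11, FDR = 0.012) and PSMD7, a scaffold partner of the deubiquitinase PSMD14 (-0.41 ± 0.12, FDR = 0.014), passed only the comparison in low glucose. PSMC1, PSMC2 and PSMC6 did not pass in either VPA comparison. These changes were small, and PSMC3, PSMC5, PSMD4 and PSMG4 were not called in HGV against HG, nor PSMC3, PSMC4, PSMD7, PSMD5 and PSMG4 in LGV against LG, when libraries were scaled by size alone. In HGV against HG, PSMC3 and PSMD4 lost their calls without HG replicate 2 or 3 or HGV replicate 1 or 3, and PSMC5 lost it without HG replicate 3 or HGV replicate 1. In LGV against LG, PSMD7 lost its call without LG replicate 3 or LGV replicate 2 or 3, and PSMC4 without LGV replicate 3.

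A pair of non-ATPase subunits rose with VPA in high glucose. PSMD13 was at 97.0, 90.5 and 90.2 CPM in LG, 78.6, 82.6 and 88.6 in HG, 99.0, 101 and 102 in LGV and 101, 124 and 101 in HGV. PSMD1 was at 150.0, 165 and 144 CPM in LG, 128, 116 and 118 in HG, 155, 194 and 196 in LGV and 147, 142 and 157 in HGV. PSMD13 was higher in every HGV library than in every HG library (0.38 ± 0.11, FDR = 0.013), as was PSMD1, the large base subunit (0.30 ± 0.10, FDR = 0.023). In low glucose PSMD13 changed by 0.13 ± 0.11, FDR = 0.36, and PSMD1 by 0.26 ± 0.12, FDR = 0.11. PSMD13 lost its call without HG replicate 1 (FDR = 0.053), and PSMD1 without HG replicate 2 or 3 or HGV replicate 1 or 3. In HG against LG PSMD1 changed by -0.32 ± 0.12, FDR = 0.053, and PSMD13 by -0.13 ± 0.12, FDR = 0.45. Every HG library was below every LG library for both genes. PSMD1 was called lower in that comparison by DESeq2 and with a filter of 1 CPM in at least 3 libraries. PSMD8, PSMD11, PSMD12 and PSMD14 did not pass in any comparison.

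Among the assembly factors, VPA lowered PSMG4, a chaperone of the alpha ring, in both media (-0.32, FDR = 0.045, in HG and -0.42, FDR = 0.025, in LG). PSMG1, which acts in the same step, passed in low glucose (-0.54 ± 0.12, FDR = 0.0021) and not in high (-0.22 ± 0.13, FDR = 0.17). The call of PSMG4 was lost without HG replicate 1, 2 or 3 or HGV replicate 2 or 3 in high glucose, and without LG replicate 3 or LGV replicate 2 or 3 in low. PSMG2 and PSMG3 did not pass in any comparison. POMP, which completes the core, did not respond past the threshold to VPA in either medium (0.08 ± 0.13 in HG and 0.13 ± 0.12 in LG). PSMD5, a chaperone of the 19S base, fell with VPA in low glucose (-0.74 ± 0.19, FDR = 0.0064), and its change in high glucose did not pass (-0.27 ± 0.11, FDR = 0.063). The other base chaperones, PSMD9 and PSMD10, did not pass in any comparison.

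Of the alternative caps, PSME3 alone passed the test with VPA, in low glucose. PSME1 was at 301, 296 and 296 CPM in LG, 253, 268 and 295 in HG, 251, 258 and 247 in LGV and 228, 278 and 236 in HGV. PSME2 was at 215, 208 and 219 CPM in LG, 167, 167 and 178 in HG, 200.0, 202 and 209 in LGV and 167, 201 and 182 in HGV. PSME3 was at 213, 223 and 219.6 CPM in LG, 179, 195 and 194 in HG, 163, 171 and 156 in LGV and 164, 193 and 145 in HGV. PSME1 and PSME2, which form the interferon-inducible cap, did not pass the test in any of the 4 comparisons. In HG against LG PSME2 changed by -0.30 ± 0.11, FDR = 0.058, with every HG library below every LG library. It was called lower in that comparison by DESeq2 and with a filter of 1 CPM in at least 3 libraries. PSME3, the nuclear cap, fell in LGV against LG (-0.41 ± 0.11, FDR = 0.0085), where the groups did not overlap, and its change in HGV against HG did not pass (-0.18 ± 0.12, FDR = 0.23). PSME3 was not called in LGV against LG without LGV replicate 3 (FDR = 0.067), and it was called in HGV against HG without HGV replicate 2 (-0.29, FDR = 0.031). PSME4, whose levels are given with the glucose comparisons, changed by 0.14 ± 0.15, FDR = 0.45, with VPA in HG and 0.33 ± 0.14, FDR = 0.078, in LG. It was called higher in LGV against LG when scaled by library size alone (0.49), with a replicate block (0.34) and without LG replicate 2 (0.47) or LGV replicate 1 (0.45).

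The VPA responses in the 2 media, which share no library, had a Pearson correlation of 0.88 across the 47 genes (0.79 without PSMB9), beside 0.91 across 15743 genes; genes within a library are not independent. The genes lower in both comparisons were PSMB5, PSMB6, PSMB10, PSMC3, PSMC5, PSMD4 and PSMG4. They made up 87.5% of the members lower in HGV against HG and 58.3% of those lower in LGV against LG. The matching shares over all genes were not counted, so whether these are high for proteasome genes was not tested. The test of the difference between the media, over all 12 libraries, called none of the 47 genes, against 0.0427% of all genes, and DESeq2 called none either. PSMB8 and PSMB6 had an unadjusted p under 0.05, 2 of 47 beside 11.3% of all genes. The interaction, as HGV against HG minus LGV against LG, was -0.49 ± 0.22, FDR = 0.39, for PSMB8, 0.38 ± 0.18, FDR = 0.44, for PSMB6 and 0.48 ± 0.23, FDR = 0.45, for PSMD5.

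**Figure D3:**
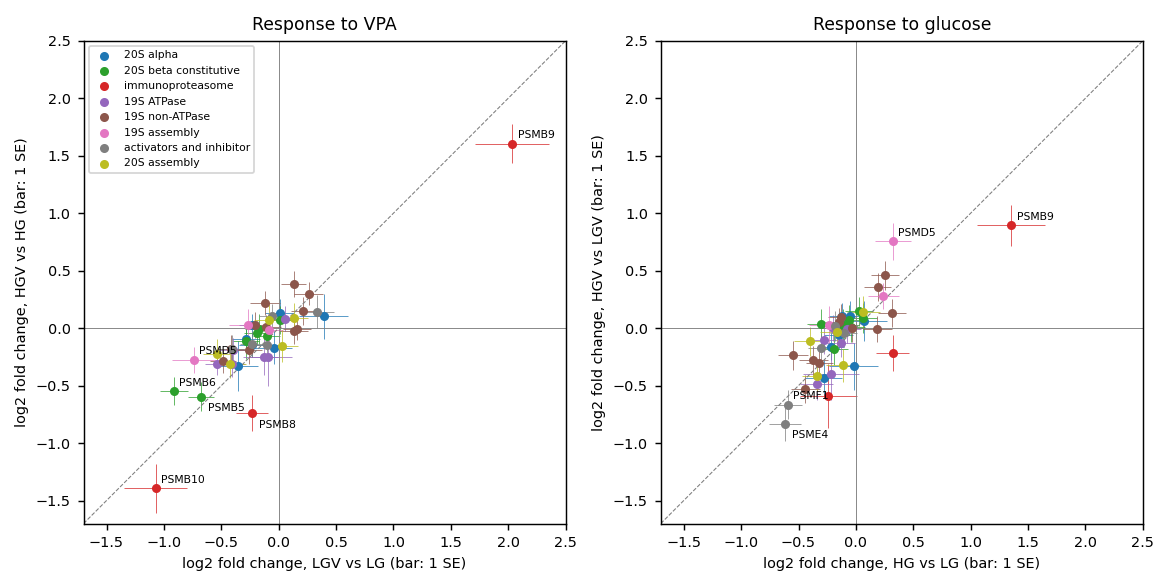
Log2 fold change with VPA (left, low glucose on the horizontal axis and high glucose on the vertical) and with high glucose (right, without VPA horizontally and with VPA vertically) for the 47 genes, with bars of 1 standard error, a dashed line of equal change and colours for the role of the subunit. Most genes lie within 0.5 of the origin, PSMB9 lies far up both diagonals, PSMB10 at the lower end on the left, and PSME4 and PSMF1 at the lower end on the right.

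High glucose, by comparison, moved an activator and an inhibitor of the core. In HG against LG, 7 of the 47 genes passed the test, against 24.7% of the 15452 genes tested. PSMB9 was higher (12% of all genes), and PSMD2, PSMD3, PSMD6, PSME4, PSMF1 and PSMG1 were lower (12.7%). In HGV against LGV 10 passed, against 40.7% of 16208 genes. PSMB9, PSMD4, PSMD7 and PSMD5 were higher (21.2%), and PSMA1, PSMC6, PSMD6, PSME4, PSMF1 and POMP were lower (19.5%). The median log2 fold change of the members was -0.13 and -0.01, beside 0.01 in each comparison over all genes. Scaled by library size alone, 2 members were higher and 3 lower in HG against LG, and 5 higher and 4 lower in HGV against LGV. Without HGV replicate 2, 14 members (4 higher, 10 lower) passed in HGV against LGV.

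PSME4, the large nuclear cap known as PA200 that promotes degradation without ubiquitin, and PSMF1, an inhibitor of the isolated core, were lower in high glucose with and without VPA. PSME4 was at 240.4, 309 and 231 CPM in LG, 196, 149 and 156 in HG, 274, 359.7 and 342 in LGV and 207, 147 and 200.5 in HGV. PSMF1 was at 312, 258 and 236 CPM in LG, 175, 176 and 174 in HG, 242, 257 and 246 in LGV and 147, 179 and 149.8 in HGV. For both genes every high glucose library was below every low glucose library of the same treatment. PSME4 changed by -0.62 ± 0.14, FDR = 0.0034, without VPA and -0.83 ± 0.15, FDR = 0.00029, with it. PSMF1 changed by -0.59 ± 0.12, FDR = 0.0023, without VPA and -0.67 ± 0.12, FDR = 0.00039, with it.

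PSMD6, a lid subunit, was likewise lower in both comparisons of glucose. PSMD6 was at 56.8, 57.3 and 60.3 CPM in LG, 47.1, 38.5 and 41.0 in HG, 67.1, 63.5 and 70.0 in LGV and 47.9, 41.3 and 51.4 in HGV. The groups did not overlap, and the log2 fold change was -0.44 ± 0.13, FDR = 0.016, without VPA and -0.53 ± 0.12, FDR = 0.0021, with it. PSMD2, a base subunit and a docking site for ubiquitin shuttles, passed only without VPA. PSMD2 was at 274, 265 and 213 CPM in LG, 153, 179 and 174 in HG, 203, 242 and 242 in LGV and 192, 215 and 183 in HGV. HG lay below LG without overlap (-0.55 ± 0.13, FDR = 0.005), while the difference with VPA was -0.24 ± 0.13, FDR = 0.14. PSMD3, a lid subunit (-0.37 ± 0.13, FDR = 0.039), and PSMG1 (-0.40 ± 0.13, FDR = 0.035) were also lower in HG than in LG. PSMD3, PSMD6 and PSMG1 lost their calls in HG against LG when scaled by library size alone and without LG replicate 1, HG replicate 2 or HG replicate 3; PSMD3 and PSMG1 also lost them without LG replicate 2 or HG replicate 1, and PSMG1 without LG replicate 3.

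With VPA present, high glucose raised PSMD5 and PSMD7. PSMD5 was at 24.0, 18.5 and 27.6 CPM in LG, 29.1, 29.0 and 28.0 in HG, 17.8, 11.2 and 12.6 in LGV and 23.0, 26.2 and 21.9 in HGV. PSMD7 was at 95.1, 90.8 and 112 CPM in LG, 110.4, 117 and 123 in HG, 79.7, 70.0 and 72.0 in LGV and 92.6, 121 and 95.3 in HGV. In both genes the LGV libraries were the lowest and did not overlap with HGV. The log2 fold change in HGV against LGV was 0.75 ± 0.16, FDR = 0.0012, for PSMD5 and 0.46 ± 0.13, FDR = 0.008, for PSMD7, and in HG against LG it was 0.32 ± 0.16, FDR = 0.14, and 0.25 ± 0.12, FDR = 0.14. PSMD4 was also higher in HGV than in LGV (0.36 ± 0.12, FDR = 0.023). These 3 genes were among those lower in LGV than in LG, and the 2 comparisons share the LGV libraries. POMP and PSMC6 were lower in HGV than in LGV. POMP was at 49.8, 61.4 and 55.0 CPM in LG, 44.4, 38.5 and 46.6 in HG, 58.5, 63.1 and 59.4 in LGV and 40.4, 54.9 and 42.0 in HGV. The log2 fold change in HGV against LGV was -0.42 ± 0.13, FDR = 0.016, for POMP and -0.49 ± 0.14, FDR = 0.0091, for PSMC6. In HG against LG it was -0.34 ± 0.13, FDR = 0.069, for POMP and -0.34 ± 0.14, FDR = 0.085, for PSMC6, with every HG library below every LG library for both genes. PSMD4 was not called without any 1 of the LGV libraries or without HGV replicate 3, POMP without LGV replicate 2 or HGV replicate 1 or 3, and PSMC6 without HGV replicate 1. PSMC6 and PSMA1 were not called in HGV against LGV when scaled by library size alone.

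**Figure D4:**
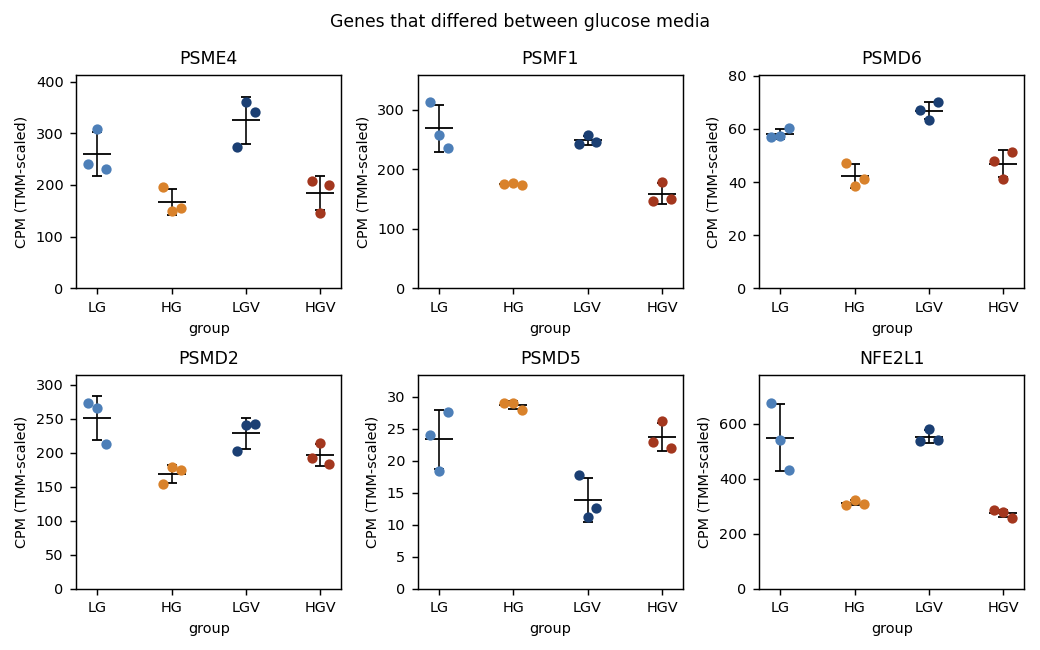
TMM-scaled CPM of 5 proteasome genes and of NFE2L1, the transcription factor of proteasome genes, in the 12 libraries, with 1 point per library and black bars for the mean and SD of 3 libraries; each vertical axis starts at 0. PSME4, PSMF1, PSMD6 and NFE2L1 are lower in HG and HGV than in LG and LGV without overlap, and PSMD5 is lowest in LGV.

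The responses to glucose without and with VPA had a Pearson correlation of 0.79 across the 47 genes (0.75 without PSMB9), beside 0.78 across 15271 genes, as a description. PSMD6, PSME4 and PSMF1 were lower in both, which is 50% of the 6 members lower in each comparison. The matching share over all genes was not counted, so whether 50% is high or low was not tested.

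**Figure D5:**
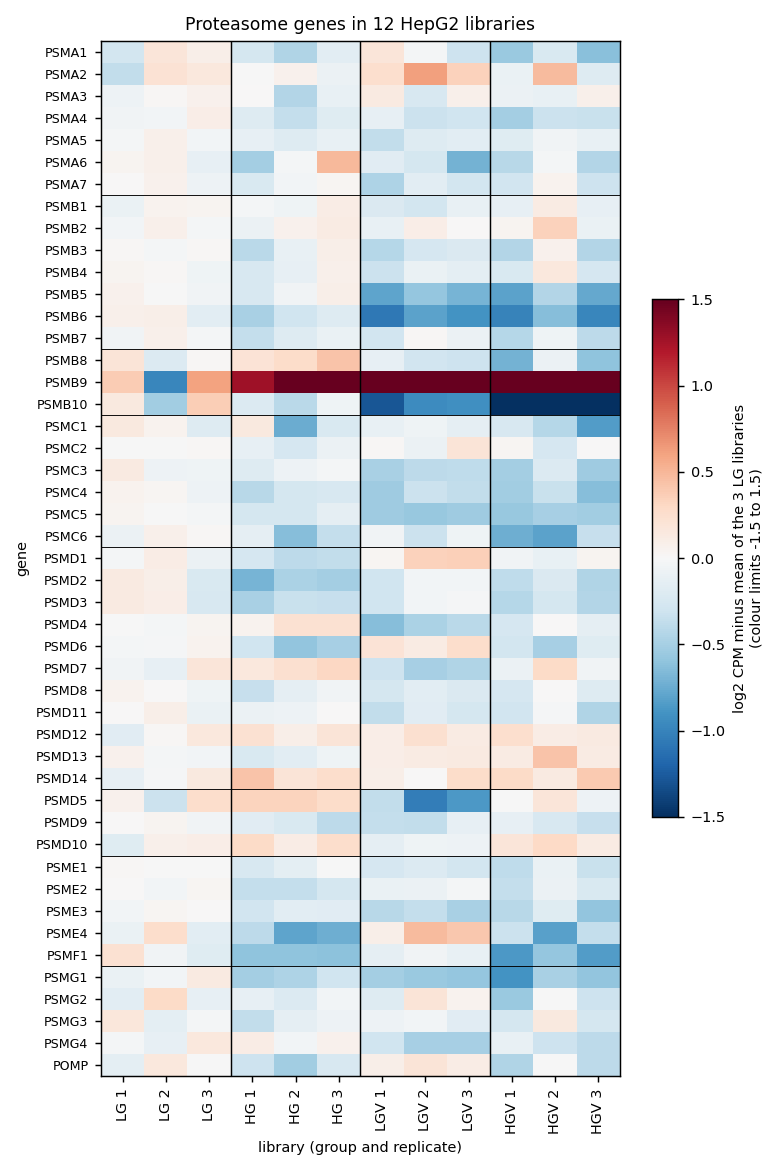
Log2 CPM of the 47 genes in each library, minus the mean of the 3 LG libraries, with genes in rows grouped by role and libraries in columns; colours stop at -1.5 and 1.5. PSMB9 is red in all libraries outside LG, PSMB10, PSMB5 and PSMB6 are blue in both VPA groups, and most other genes are pale.

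The factors that control proteasome genes were described from a list of 11, all measured. NFE2L1, the transcription factor that raises proteasome genes once it has left the endoplasmic reticulum, fell with high glucose. NFE2L1 was at 676, 539 and 433 CPM in LG, 305, 322 and 308 in HG, 536, 580.2 and 541 in LGV and 284, 278 and 258 in HGV. High glucose libraries lay below low glucose ones without overlap, and the log2 fold change was -0.79 ± 0.14, FDR = 0.00059, in HG against LG and -1.03 ± 0.12, FDR = 8.3e-06, in HGV against LGV. With VPA it was -0.19 ± 0.10 in HG and 0.02 ± 0.15 in LG, and neither passed the test. In HG against LG 6 of the 11 were lower and none higher (12.7% and 12% of all genes tested): NFE2L1, the extraction ATPase VCP, the ubiquitin ligase SYVN1 and the small MAF partners MAFF, MAFG and MAFK. SYVN1 changed by -1.32 ± 0.13, FDR = 1.8e-06, MAFK by -1.11 ± 0.17, FDR = 0.00016, and MAFG by -1.07 ± 0.16, FDR = 0.00013. In HGV against LGV 5 were lower (19.5% of all genes), the same genes without VCP, and NPLOC4 was higher (0.30 ± 0.12, FDR = 0.048). With VPA, 3 were higher (UFD1L, SYVN1 and MAFK) and 2 lower (DDI2 and VCP) in HGV against HG, beside 25.8% and 20.2% of all genes. In LGV against LG 4 were lower (DDI2, NGLY1, VCP and NPLOC4), beside 19.9% of all genes. DDI2, the protease that releases NFE2L1, changed by -0.62 ± 0.18, FDR = 0.014, and -0.73 ± 0.12, FDR = 0.0002. The calls of MAFF in HG against LG, of NPLOC4 in HGV against LGV, of SYVN1 and VCP in HGV against HG and of NGLY1 in LGV against LG were lost in most fits that left out 1 library, and that of UFD1L without HG replicate 2 (FDR = 0.054). Scaling by library size alone ended the calls of DDI2 and VCP in HGV against HG and of NGLY1 in LGV against LG, and DESeq2's size factors those of NPLOC4 in HGV against LGV and SYVN1 in HGV against HG. NFE2L2 did not pass in any comparison.

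Of 12 symbols listed for proteins that associate with the proteasome, 11 were measured, SEM1 under its older symbol SHFM1. KIAA0368, which encodes the scaffold ECM29 that links the core to the 19S particle, had the greatest fall of these 11 with VPA in high glucose. KIAA0368 was at 201, 215 and 195 CPM in LG, 191, 175 and 171 in HG, 107, 110.1 and 117 in LGV and 76.1, 63.2 and 74.2 in HGV. It changed by -1.33 ± 0.11, FDR = 9.8e-07, in HGV against HG and -0.86 ± 0.11, FDR = 2.7e-05, in LGV against LG, with no overlap between groups. PAAF1, which binds the ATPases, fell as well (-0.58 ± 0.12, FDR = 0.0018, and -1.14 ± 0.18, FDR = 0.00016). In all, 1 of the 11 was higher (USP14, the reversible deubiquitinase, 0.32 ± 0.10, FDR = 0.017) and 2 lower in HGV against HG, beside 25.8% and 20.2% of all genes. In LGV against LG 1 was higher (ZFAND5) and 3 were lower, beside 21.7% and 19.9% of all genes, with AKIRIN2, which carries proteasomes into the nucleus, as the third; its call was lost when scaled by library size alone. High glucose lowered UBE3C, ZFAND5 and ZFAND2A in both comparisons (12.7% of all genes in HG against LG and 19.5% in HGV against LGV), ZFAND2A by -1.02 ± 0.13, FDR = 2.2e-05, in HG against LG and -0.91 ± 0.11, FDR = 1.3e-05, in HGV against LGV. In HGV against LGV KIAA0368 was also lower and USP14, PAAF1 and AKIRIN2 were higher (21.2%). USP14 was not called in HGV against HG without HG replicate 2 or 3, nor in HGV against LGV without LGV replicate 3. AKIRIN2 was not called in HGV against LGV without LGV replicate 3 or HGV replicate 1, UBE3C in HG against LG without LG replicate 2 or HG replicate 3, and ZFAND5 in LGV against LG without LG replicate 1 or 3 or LGV replicate 2 or 3. ADRM1, SHFM1, UCHL5 and TXNL1 did not pass in any comparison.

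NFE2L1 acts through antioxidant response elements, so the 250 bases upstream of each annotated start were searched on both strands of GRCh37. The core TGACNNNGC was found for 12 of the 47 genes (25.5%), beside 11.4% of 19819 protein-coding genes. The 12 were PSMA7, PSMB3, PSMB6, PSMB9, PSMD3, PSMD5, PSMD9, PSMD12, PSME1, PSME2, PSME4 and PSMG1. CCAAT, the box bound by NF-Y, was found for 18 of the 47 (38.3%), beside 34.2% of all genes. Of the 12 genes with the antioxidant core, 4 were called in HG against LG, beside 24.7% of all genes tested: PSMB9 was higher, and PSMD3, PSME4 and PSMG1 were lower. In HGV against LGV 3 were called, beside 40.7% of all genes: PSMB9 and PSMD5 were higher, and PSME4 was lower. In HGV against HG 2 were called, beside 46.1%: PSMB9 was higher and PSMB6 lower. In LGV against LG 4 were called, beside 41.6%: PSMB9 was higher, and PSMB6, PSMD5 and PSMG1 were lower. A match is a stretch of letters and not a site shown to be bound.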

How the data were processed

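Libraries were made from poly(A) RNA of HepG2 cells with a directional kit (12 in all) and sequenced as 50 nt single-end reads. The authors trimmed the reads, used STAR for alignment to GRCh37 and featureCounts to assign reads to Ensembl genes; bcl2fastq 2.17.1.14 is named in the submitters' processing notes. The deposited values are raw counts, without normalization, for 16389 genes, genes averaging under 10 reads having been omitted. Reads that map to several places or to overlapping genes can be lost, and the strand setting is not given in the sources used here.

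Groups were taken from the sample labels. Each comparison was fitted on its own libraries with edgeR 4.0.16 in R 4.3.3 (TMM factors, quasi-likelihood F test, mean count of at least 10, Benjamini-Hochberg adjustment over all genes tested, FDR of 0.05 or less); the interaction used all 12 libraries. Standard errors are the log2 fold change divided by the root of F. Levels are CPM scaled with TMM factors over the 12 libraries, and per kilobase of the canonical GENCODE transcript. The ratio of each immunoproteasome gene to its constitutive counterpart, with 0.5 added to counts, was compared with exact permutation tests. The fits were tested on simulated counts. Alternatives were DESeq2 1.42.0, its size factors, library size alone, other filters, a replicate block, a joint fit, an FDR of 0.01 and each library left out. Other steps used Python 3.11.15 with pandas 2.3.3, scipy 1.17.1, numpy 2.4.6 and numba 0.67.0, and plots matplotlib 3.10.9. Promoter sequences and overlaps were read from GRCh37 with GENCODE annotation. Named were all members, the 3 called genes with the largest change in each direction per list and comparison (the largest of them with values), the catalytic subunits, activators, POMP, NFE2L1 and the 3 members with the smallest interaction p; TAP1 was added as the neighbour of PSMB9. Some genes of the other lists are not reported here. The members and lists were chosen with earlier results of these data known.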

Additional observations from a re-analysis of the deposited data

How the results depend on the processing

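No called member changed sign in any setting, but the number called did change. With library size alone the members higher and lower were 2 and 3 in HG against LG, 4 and 4 in HGV against HG, 6 and 7 in LGV against LG and 5 and 4 in HGV against LGV. One fit of all 12 libraries gave 2 higher in HG against LG. At an FDR of 0.01, 4 members (3 lower) were called in HG against LG and 5 (1 higher, 4 lower) in HGV against HG. Whether replicate numbers pair the cultures is not stated, and the main fits did not pair them. Correlations between same-numbered libraries ran from -0.156 to 0.005 in HG against LG and from 0.026 to 0.195 in HGV against LGV. They reached 0.295 elsewhere, and not every library correlated best with its own number. Such correlations cannot show how the cultures were run. A replicate block called 5 members for glucose without VPA, 12 for glucose with VPA, 11 for VPA in high glucose, 14 (2 higher) for VPA in low glucose and 0 in the interaction. Leaving out 1 library gave 4 to 11 called in HG against LG (1 to 4 higher, 3 to 7 lower; 4 without LG replicate 1, HG replicate 2 or HG replicate 3, and 11 without LG replicate 3), 6 to 16 in HGV against HG (2 to 3 higher, 4 to 13 lower; 6 without HG replicate 3, 7 without HG replicate 2 or HGV replicate 1 or 3, and 13 lower without HGV replicate 2), 9 to 15 in LGV against LG (1 to 3 higher, with 2 without LG replicate 2 and 3 without LGV replicate 1) and 7 to 14 in HGV against LGV (3 to 10 lower, with 10 without LGV replicate 1 or HGV replicate 2 and 3 without HGV replicate 1). The log2 ratios paired by replicate number kept their values of 2.60 (PSMB9 to PSMB6, VPA), 1.32 (the same, glucose) and -1.11 (PSMB10 to PSMB7, VPA), but an exact test over 6 pairs cannot go below p = 0.031, which gave 0.0625 after adjustment. With a replicate number left out, the smallest p is 0.056; these ratios ran from 2.41 to 2.84, 0.95 to 1.52 and -1.25 to -1.03, and PSMB8 to PSMB5 with glucose ran from -0.054 to 0.16. Members whose sign turned were not called: with library size alone there were 6 in HG against LG, 8 in HGV against HG, 10 in LGV against LG and 6 in HGV against LGV, and with DESeq2 or its size factors 4 in HGV against HG and 2 in HGV against LGV. Of the genes followed singly, signs turned with library size alone for PSMB5 in HG against LG (0.056), PSMB7 in both VPA comparisons (0.051 and 0.052), PSME2 in LGV against LG (0.10) and PSME1 in HGV against LGV (0.041), and with DESeq2 or its size factors for PSMB5 in HGV against LGV (-0.0040). Leaving out 1 library gave ranges across 0 for PSMB5 (-0.090 to 0.055 in HG against LG and -0.11 to 0.077 in HGV against LGV), PSMB6 (-0.090 to 0.10), PSME1 (-0.13 to 0.014) and PSME3 (-0.091 to 0.11) in HGV against LGV, POMP in HGV against HG (-0.064 to 0.17) and NFE2L1 in LGV against LG (-0.11 to 0.19). The cause of these changes was not tested.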

Other observations

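Among the ubiquitin genes, activating enzymes and shuttle factors that deliver substrates, VPA lowered, in high and low glucose respectively, the shuttles UBQLN4 (-0.75 ± 0.11, FDR = 0.00013, and -0.75 ± 0.12, FDR = 0.00016) and RAD23B (-0.57 ± 0.09, FDR = 0.00032, and -0.42 ± 0.12, FDR = 0.0098), the last not called without LGV replicate 3 (FDR = 0.061). The activating enzyme UBA1 was lower in LGV against LG and higher in HGV against LGV (0.53 ± 0.12, FDR = 0.0025), comparisons that share the LGV libraries; the former call was lost with library size alone and without LG replicate 1 or LGV replicate 2. The ubiquitin genes UBB and RPS27A did not pass in any comparison. Of the 11 genes of this list, 3 were lower in HGV against HG and 4 in LGV against LG, beside 20.2% and 19.9% of all genes.

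Among the genes for interferon signalling and class I antigen processing, B2M, the light chain of MHC class I, was higher with VPA in both media. B2M was at 249.5, 295 and 303 CPM in LG, 249, 241 and 265 in HG, 361, 421 and 403 in LGV and 315, 427 and 377 in HGV. It changed by 0.57 ± 0.12, FDR = 0.002, in HGV against HG and 0.49 ± 0.13, FDR = 0.0059, in LGV against LG. In HGV against HG, TAP2, TAPBP and ERAP1 were lower, so 1 of the 9 genes listed was higher and 3 were lower. Of all genes tested, 25.8% were higher and 20.2% lower. In LGV against LG B2M alone passed, beside 41.6% of all genes. In HGV against LGV, TAP1, TAP2 and ERAP1 were lower (19.5% of all genes were). NLRC5, the activator of class I genes, was higher (0.63 ± 0.15, FDR = 0.0028), beside 21.2% of all genes. The call of TAP2 in HGV against HG was lost without any 1 of the libraries and in HGV against LGV without any 1 of the LGV libraries or HGV replicate 3, and that of ERAP1 in HGV against LGV without LGV replicate 2 or HGV replicate 2 or 3. All 3 calls were also lost when scaled by library size alone. IRF1 and IRF9 did not pass in any comparison.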
